A study of Mus musculus with 98 samples.

Results

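The genes described here are 32 genes of the unfolded protein response and the integrated stress response, taken as a fixed list of symbols that had to be present in each of the 6 deposited count tables. All 32 were found. The virus-treated neuron tables list 25239 genes each, and 55367 genes are listed in each of the others. The list has 2 arms that were kept apart. The ATF4 arm has 10 genes: the transcription factors Atf4, Atf3 and Ddit3 (CHOP), the pseudokinase gene Trib3, the glutathione-degrading enzyme Chac1, the amino acid enzymes Asns, Psat1 and Phgdh, the stress sensor Sesn2, and Ppp1r15a (GADD34), which brings a phosphatase to eIF2-alpha. The ER arm has 22 genes: 4 sensors and regulators (Xbp1, Ern1, Atf6, Eif2ak3), 14 chaperones and folding factors (Hspa5, Hsp90b1, Calr, Canx, Pdia3, Pdia4, Pdia6, Dnajb9, Dnajb11, Dnajc3, Sdf2l1, Manf, Creld2, Hyou1), and 4 genes of the degradation of misfolded ER proteins (Herpud1, Sel1l, Edem1, Syvn1).

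When unfolded proteins build up in the endoplasmic reticulum (ER), 3 membrane sensors respond: PERK (Eif2ak3), IRE1 (Ern1) and ATF6. IRE1 splices the Xbp1 messenger and ATF6 is cut by proteases, and the resulting factors act mainly on genes for ER chaperones and for degradation. PERK phosphorylates eIF2-alpha, which slows translation in general while the Atf4 messenger is translated more; other kinases, which sense amino acid lack, viral RNA or haem, feed into the same step and together make up the integrated stress response. ATF4 is therefore controlled largely at translation, and splicing and protein cleavage are likewise not visible in counts per gene, so the messenger levels below show the transcript side of both arms only. In neurons some ATF4-arm genes, Atf3 and Ppp1r15a among them, are also known to be induced by activity.

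The series measured poly(A) RNA of hippocampal cells and tissue after expression of ACSS2, which turns acetate into acetyl-CoA, from a PhP.eB virus (upACSS2), against the same virus with an empty vector. Primary hippocampal neurons of CD1 mouse embryos received virus on day 5 in culture for 48 hours, were washed on day 7, were then given hAD-tau (a tau preparation that the labels do not describe further) or PBS, and were collected on day 9 or day 21, with n = 3 for each of 8 groups. A further 4 groups of n = 3, with the same viruses and the same hAD-tau or PBS, were labelled stimulated and collected on day 21; their labels name no strain and not the stimulating agent, and they come from a table of their own, so that stimulation and table cannot be told apart. Cultures without virus were collected on day 21 after PBS (n = 3) or hAD-tau (n = 4). The mice were male: C57BL6 mice aged 22 to 23 months, 2 months after retro-orbital virus (whole hippocampus, n = 12 for each virus, 30 minutes after recall of a context), C57BL6 mice aged 10 months, 2 weeks after virus (dorsal hippocampus, 6 upACSS2 and 5 vector, 30 minutes after fear conditioning), and PS19 mice, which carry a mutant human tau transgene under the Prnp promoter, aged 3.5 months (1 month after virus) or 8.5 to 9 months (6 months after virus), n = 5 for each virus and age, 30 minutes after contextual recall. PS19 tissue was dorsal hippocampus except in the 1-month upACSS2 group, which is labelled whole hippocampus, and there the part of tissue and that of virus cannot be told apart. All PS19 mice carried the transgene. For 3 sets of groups (vector with hAD-tau, upACSS2 with PBS, and PS19 upACSS2 at 1 month) a treatment field of the labels goes against the sample title; groups were taken from the titles.

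Library totals ran from 5075099 to 39985460 counts. Acss2 itself was at 39.6 to 57.2 CPM (counts scaled to 1e+06 per library) in the vector neurons and 1500 to 5351 CPM in the upACSS2 neurons, without overlap. In the mice it was 46.7 to 61.5 CPM with upACSS2 against 40.0 to 53.7 CPM with vector at 22 to 23 months, and 44.9 to 237 CPM against 43.1 to 56.0 CPM in PS19 mice at 6 months, with overlap in both. At 10 months it was 49.9 to 59.3 CPM against 42.3 to 48.8 CPM, without overlap. In PS19 mice at 1 month it was 60.1 to 1465 CPM against 51.5 to 66.3 CPM, where upACSS2 replicate 4, the lowest of its group, lay within the vector range. Neuronal markers dominated the neuron libraries at day 9 (summed level 8002 to 8747 CPM) and summed to 4161 to 7289 CPM in the mice. Astrocyte markers summed to 2304 to 2851 CPM at day 9. In unstimulated day 21 libraries they summed to 3618 to 20943 CPM, against 3495 to 5447 CPM for neuronal markers. There 1 library, vector with PBS replicate 3, stood apart at 20943 CPM. Stimulated day 21 libraries had 2980 to 10038 CPM of astrocyte markers. In these bulk libraries fewer cells of a type and less RNA per cell cannot be told apart. The labels do not say that replicates of a neuron group came from separate cultures, so p-values there measure the spread between these libraries, which may be technical.

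The control sequences upstream of these genes differ between the arms, and a few are shown because they hold elements that the factors of each arm are known to bind. Promoters were matched by symbol in the RefSeq table of mouse build GRCm38.p6 for 29 of 32 genes (windows from 250 bases before to 50 bases after the start of transcription). Atf6, Manf and Hyou1 were not matched. Motifs were searched on both strands. The ER stress element, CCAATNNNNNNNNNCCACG, was in 8 of 19 ER-arm windows (42.1%), in 0 of 11 ATF4-arm windows and in 39 of 32851 promoters (0.119%). The related ERSE-II, ATTGG and CCACG with 1 base between them, was in 2 of 19 ER-arm windows (Herpud1 and Dnajb11) and in 0.0365% of all promoters; its 3′ end also closes the ER stress element. The C/EBP-ATF element that ATF4 binds, TGATGNAA, was in 4 of 11 ATF4-arm windows (36.4%: Atf3, Chac1, Trib3 and Asns), in 1 of 19 ER-arm windows (Herpud1) and in 3.97% of all promoters. The UPRE core TGACGTGG was in none of the windows of either arm and in 0.676% of all promoters. Atf3 (chr1:191183334-191183583, minus strand), Chac1 (chr2:119350992-119351241, plus strand) and Asns (chr6:7693210-7693459, minus strand) show the C/EBP-ATF element in capitals, in Atf3 and Chac1 on the other strand. Hspa5 (chr2:34771840-34772089, plus strand) and Pdia6 (chr12:17266339-17266588, plus strand) show the ER stress element, and Herpud1 (chr8:94386179-94386428, plus strand) holds both a C/EBP-ATF element, on the other strand, and ERSE-II. Ddit3 (chr10:127290543-127290792, plus strand), called for upACSS2 in stimulated neurons with hAD-tau below, held no match in this window. Each sequence is the 250 bases before the start, 5′ to 3′ on the gene's strand. A match is a description of the letters and not a measured binding site.
Atf3: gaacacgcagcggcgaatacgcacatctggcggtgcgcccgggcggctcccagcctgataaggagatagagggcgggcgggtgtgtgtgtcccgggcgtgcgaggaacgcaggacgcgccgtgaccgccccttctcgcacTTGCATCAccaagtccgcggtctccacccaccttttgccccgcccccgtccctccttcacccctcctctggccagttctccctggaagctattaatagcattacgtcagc
Chac1: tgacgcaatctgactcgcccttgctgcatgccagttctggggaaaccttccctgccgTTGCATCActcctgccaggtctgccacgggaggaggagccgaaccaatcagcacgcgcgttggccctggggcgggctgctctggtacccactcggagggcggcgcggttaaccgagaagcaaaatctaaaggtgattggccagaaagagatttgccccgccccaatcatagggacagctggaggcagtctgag
Asns: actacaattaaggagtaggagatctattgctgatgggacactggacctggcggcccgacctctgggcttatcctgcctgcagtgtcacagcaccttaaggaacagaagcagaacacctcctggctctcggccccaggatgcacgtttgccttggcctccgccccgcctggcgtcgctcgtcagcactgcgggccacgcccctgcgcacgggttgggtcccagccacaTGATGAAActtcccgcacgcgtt
Ddit3: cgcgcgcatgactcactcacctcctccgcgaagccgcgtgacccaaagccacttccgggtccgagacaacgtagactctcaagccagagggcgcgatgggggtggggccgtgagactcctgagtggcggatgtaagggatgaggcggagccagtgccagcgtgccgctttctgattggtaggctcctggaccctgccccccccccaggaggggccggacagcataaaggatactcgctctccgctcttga
Hspa5: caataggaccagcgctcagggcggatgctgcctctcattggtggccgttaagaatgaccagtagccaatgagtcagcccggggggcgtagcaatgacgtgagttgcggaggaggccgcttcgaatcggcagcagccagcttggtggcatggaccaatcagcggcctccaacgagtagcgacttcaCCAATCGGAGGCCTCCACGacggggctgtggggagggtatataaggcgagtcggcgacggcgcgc
Pdia6: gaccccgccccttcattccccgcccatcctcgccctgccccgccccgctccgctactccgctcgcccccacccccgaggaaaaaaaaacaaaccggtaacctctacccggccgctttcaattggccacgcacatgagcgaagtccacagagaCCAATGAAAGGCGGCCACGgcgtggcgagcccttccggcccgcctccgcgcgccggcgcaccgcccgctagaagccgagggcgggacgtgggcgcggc
Herpud1: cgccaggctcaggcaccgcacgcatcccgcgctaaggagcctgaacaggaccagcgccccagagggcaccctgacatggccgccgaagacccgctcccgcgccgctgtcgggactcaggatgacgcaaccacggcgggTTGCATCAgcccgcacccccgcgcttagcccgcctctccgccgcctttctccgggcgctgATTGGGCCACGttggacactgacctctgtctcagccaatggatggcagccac

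Per kilobase of exon (all annotated exons of a gene merged, which can be longer than any single transcript), ER chaperones were the most abundant of the 32 genes. In day 21 vector neurons with PBS, mean levels were 147 CPM per kilobase for Calr, 128 for Canx, 104 for Hsp90b1, 92.6 for Hspa5 (BiP) and 87.6 for Pdia3. Atf4 followed at 82.8 CPM per kilobase and Asns at 56.6. The lowest genes were Trib3 (0.927 CPM per kilobase) and Ern1 (0.764). Day 9 neurons had a like order at the top, with Calr at 160 and Canx at 143 CPM per kilobase, and with Atf3 lowest at 0.313. In the hippocampus of aged vector mice Calr (111 CPM per kilobase), Hsp90b1 (97.1) and Canx (96.1) were again highest, Atf4 was at 44.5, and Trib3 was lowest at 0.12. Hspa5 and Pdia3 in day 21 neurons, and Hsp90b1 and Canx in the aged mice, were neighbours in this order whose means lay close together.

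In the stimulated neurons the called members all lay in the ATF4 arm. Atf3 and Ppp1r15a rose in all 4 stimulated groups, while Ddit3, Trib3, Chac1 and Asns did not pass the test in any, and no gene of the ER arm passed. Atf3, an immediate-early transcription factor, was at 5.71, 9.29 and 13.4 CPM in unstimulated and 149, 258 and 242 CPM in stimulated vector neurons with PBS. Every stimulated library lay far above every unstimulated one. The rise was 22.8-fold (log2 fold change 4.51 ± 0.32 SE, adjusted p = 3.51e-09, edgeR's quasi-likelihood test with Benjamini-Hochberg adjustment over all genes tested, as for every adjusted p below unless DESeq2 is named). It was 26.1-fold in vector with hAD-tau, 53.1-fold in upACSS2 with PBS and 38.8-fold in upACSS2 with hAD-tau. Per kilobase Atf3 stood 29th of the 32 genes in unstimulated and 5th in stimulated vector neurons with PBS.

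Ppp1r15a was at 20.9, 23.5 and 18.7 CPM unstimulated and 93.0, 132 and 125 CPM stimulated in vector neurons with PBS, again without overlap. It rose 5.59-fold there (log2 2.48 ± 0.19 SE, adjusted p = 1.06e-08), 3.93-fold with vector and hAD-tau, 5.85-fold with upACSS2 and PBS, and 5.52-fold with upACSS2 and hAD-tau. Both genes remained called in 24 of 24 fits that left out 1 library, in each of the 4 comparisons. The 24 include fits that left out a library of a group not compared. Atf4 was at 227, 196 and 163 CPM unstimulated and 280, 234 and 276 CPM stimulated (vector with PBS), so that its groups were separate but close. It rose 1.35-fold there (adjusted p = 0.0338) and 1.37-fold in upACSS2 with PBS (adjusted p = 0.0404), and its log2 fold changes with hAD-tau were 0.43 (vector, adjusted p = 0.0645) and 0.38 (upACSS2, adjusted p = 0.138). The Atf4 call was kept in 16 of 24 fits that left out 1 library for vector and in 7 of 24 for upACSS2.

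These 3, 2, 3 and 2 called members (vector with PBS, vector with hAD-tau, upACSS2 with PBS, upACSS2 with hAD-tau) compare with 7.14%, 2.83%, 3.7% and 2.35% of all genes tested, and all of them belong to the ATF4 arm. The arm's median log2 fold changes were -0.05, -0.03, 0.19 and -0.02, against -0.03, -0.02, -0.01 and -0.01 over all genes. In vector neurons with PBS the log2 fold changes were -0.13 for Ddit3, the pro-apoptotic factor CHOP, -0.33 for Trib3, -0.15 for Chac1 and 0.05 for Asns. Among 19 tested further ATF4 targets on a wider list, 1, 1, 2 and 1 rose in these comparisons, taken in the same order, and Cebpg fell in the last; Cebpb, a transcription factor gene that also responds to activity, rose in each (log2 1.81, 1.40, 1.70 and 1.42). None of 18 aminoacyl-tRNA synthetase genes, a class of ATF4 targets, passed in any of the 4. Of 8 activity-regulated genes, 8, 8, 7 and 7 rose. Their summed level was 160 to 455 CPM in unstimulated and 4779 to 6736 CPM in stimulated day 21 libraries; their part in the Atf3 and Ppp1r15a values was not tested.

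The ER arm had 0 of 22 members called by edgeR in each stimulated comparison, with 5, 4, 2 and 2 at an unadjusted p under 0.05 (24.8%, 14.5%, 16.3% and 10.0% of all genes), and DESeq2 called Dnajb9 alone, in upACSS2 with PBS. Its medians were -0.06, 0.03, 0.04 and 0.06. In vector neurons with PBS the log2 fold changes of the sensors were -0.13 (Xbp1), 0.15 (Ern1), 0.36 (Atf6) and 0.17 (Eif2ak3), that of the chaperone Hspa5 was 0.07 and that of its exchange factor Hyou1 was 0.17. Dnajb9, a co-chaperone gene induced by XBP1, had 0.14, 0.33, 0.42 and 0.30 over the 4 comparisons. Whether stimulation acted differently with hAD-tau or with upACSS2 was tested by interaction terms, which called 0 members and 0.0% of all genes. For the term with upACSS2 2 had an unadjusted p under 0.05 (6.78% of all genes), of which Atf3 was larger with upACSS2 by 1.22 ± 0.41 SE on the log2 scale (adjusted p = 0.707). For the term with hAD-tau 0 did (1.73% of all genes), and DESeq2 called 0 in both.

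**Figure D1:**
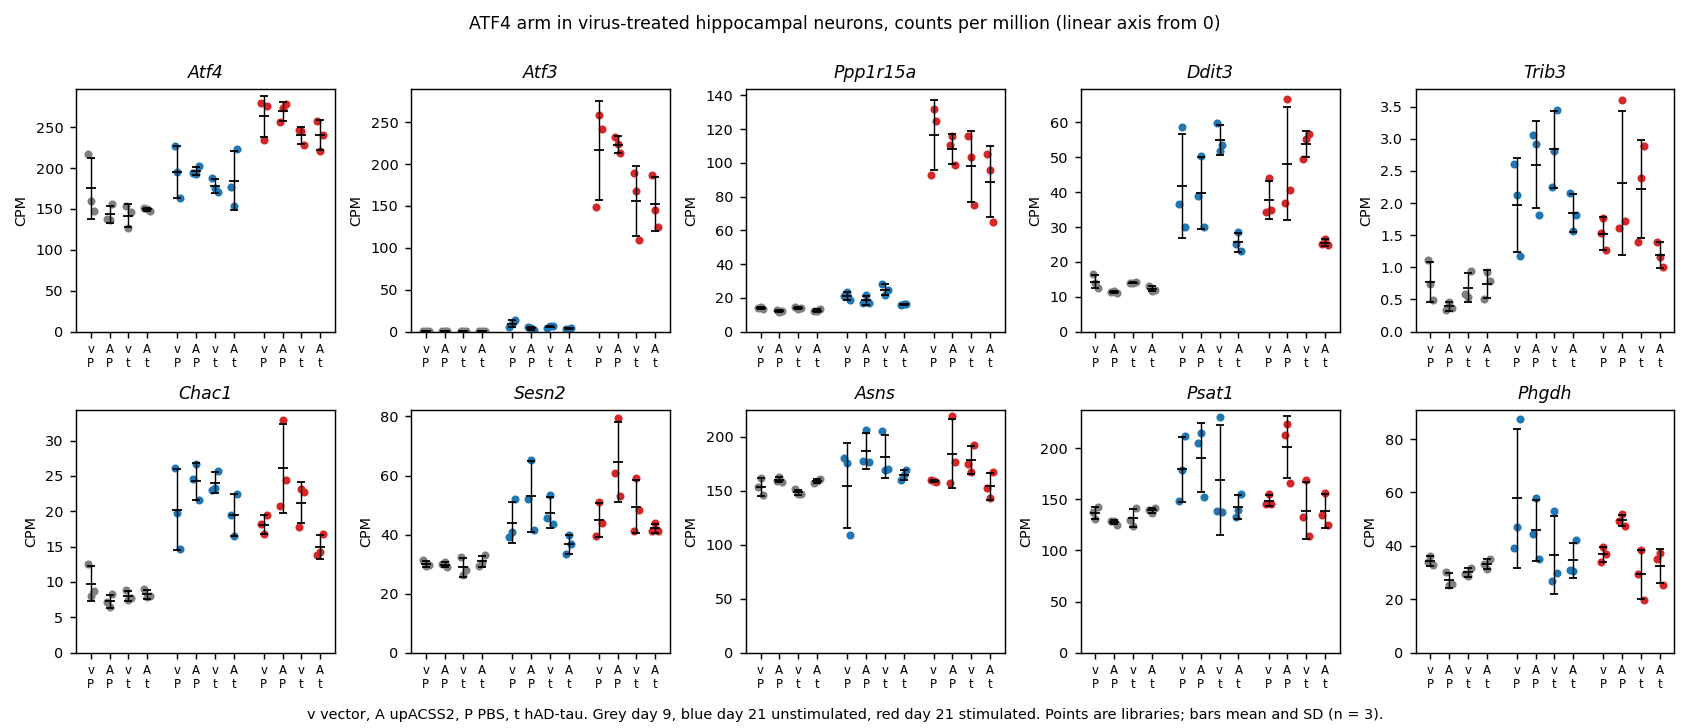
CPM of the 10 ATF4-arm genes (linear vertical axes from 0) in the 12 groups of virus-treated neurons (horizontal axis); points are libraries, bars the mean and SD of n = 3, with day 9 in grey, unstimulated day 21 in blue and stimulated day 21 in red. Atf3 and Ppp1r15a stand high in the stimulated groups alone, while Ddit3 in both day 21 sets is lowest where upACSS2 meets hAD-tau.

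Between day 9 and day 21 most of the ATF4 arm rose and the ER arm split. In vector neurons with PBS, 22 of 32 genes were called between the ages: 8 of 10 ATF4-arm genes were higher and 0 lower, and 7 of 22 ER-arm genes were higher and 7 lower. With hAD-tau 18 were called (ATF4 arm 7 higher and 0 lower, ER arm 6 higher and 5 lower). The background was high, since 57.7% and 52.6% of all genes tested were called in these comparisons, so the number of called members is not particular to the list. The median log2 fold change of the ATF4 arm was 0.67 with PBS and 0.78 with hAD-tau, that of the ER arm was -0.13 and 0.03, and that of all genes was 0.05 and 0.04.

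Atf3 was at 0.74, 0.855 and 0.427 CPM on day 9 and at 5.71, 9.29 and 13.4 CPM on day 21 in vector neurons with PBS, without overlap. It rose 13.7-fold (log2 3.78 ± 0.34 SE, adjusted p = 1.59e-08), and 8.57-fold with hAD-tau. Ddit3 was at 16.4, 13.9 and 12.6 CPM on day 9 and at 36.5, 58.7 and 30.1 CPM on day 21. The lowest day 21 library was above the highest day 9 library, and the rise was 2.89-fold with PBS (adjusted p = 1.46e-06) and 3.95-fold with hAD-tau (adjusted p = 7.61e-08). Chac1 rose 2.02-fold with PBS and 3.02-fold with hAD-tau. Trib3, an inhibitor of AKT signalling that CHOP and ATF4 induce, rose 2.37-fold and 4.18-fold from levels near 1 CPM. Sesn2 (log2 0.54 and 0.72) and Ppp1r15a (0.60 and 0.84) rose in both. Atf4 itself had a log2 fold change of 0.15 with PBS (adjusted p = 0.362) and rose by 0.34 with hAD-tau (adjusted p = 0.0488), a call kept in 6 of 24 fits that left out 1 library and absent with DESeq2. Asns had 0.01 with PBS and 0.30 with hAD-tau (adjusted p = 0.0557). The serine synthesis gene Phgdh rose with PBS by 0.75 (adjusted p = 0.0129). That call rested on the day 21 library that stood apart in astrocyte markers (87.4 CPM against 39.1 and 46.9 CPM in its group): without it the adjusted p was 0.221. Psat1, the next enzyme of that pathway, rose with PBS by 0.38 (adjusted p = 0.0374); without the same library its adjusted p was 0.214.

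In the ER arm the sensors went different ways. Atf6 was at 49.8, 47.1 and 51.0 CPM on day 9 and 90.0, 73.8 and 64.9 CPM on day 21 in vector neurons with PBS, without overlap. It rose 1.54-fold (log2 0.62 ± 0.11 SE, adjusted p = 8.89e-05) and 1.72-fold with hAD-tau. Eif2ak3, the gene of PERK, rose by 0.22 (adjusted p = 0.0331) and 0.38. Xbp1 was at 91.2, 88.6 and 80.9 CPM on day 9 and at 58.3, 67.1 and 50.5 CPM on day 21. It fell without overlap, by 0.57 with PBS (adjusted p = 2.54e-05) and by 0.37 with hAD-tau. Ern1, the gene of the kinase that splices Xbp1, did not pass (0.02 and 0.14).

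The folding genes were as mixed. Pdia4, a disulfide isomerase, rose by 0.90 and 0.46; with PBS it was at 74.0, 65.9 and 129 CPM on day 21, and without the library rich in astrocyte markers the log2 fold change was 0.54 (adjusted p = 0.00104). The ER protein gene Sdf2l1 rose by 0.69 and 0.55 and the co-chaperone gene Dnajb9 by 0.59 and 0.60. The other disulfide isomerase genes Pdia6 and Pdia3 fell, by 0.59 and 0.46 and by 0.32 and 0.28. Hyou1 fell with PBS by 0.47 (adjusted p = 0.000723) and had -0.09 with hAD-tau. Hspa5, the main ER chaperone, did not pass (-0.13 and 0.10). Dnajc3, which inhibits PERK, rose with PBS by 0.36, and without the library rich in astrocyte markers its adjusted p was 0.62. Hsp90b1 fell with PBS by 0.20, and the neurotrophic factor gene Manf fell with hAD-tau by 0.33. In the degradation group Herpud1 rose by 0.32 and 0.63, Edem1 fell by 0.49 and 0.39, and Sel1l fell with PBS by 0.25. Leaving out single libraries of the groups compared also ended the calls of Psat1, Eif2ak3, Hsp90b1, Dnajc3 and Herpud1 with PBS (adjusted p at most 0.62) and of Pdia4 and Sdf2l1 with hAD-tau (adjusted p at most 0.126). Marker levels differed between the ages. Oligodendrocyte markers summed to 22.4 to 40.9 CPM on day 9 and 498 to 1357 CPM on day 21. Of these 6 markers 5 rose and 1 fell in each comparison. Neuronal markers summed to 8002 to 8747 CPM on day 9 and 3495 to 5447 CPM on day 21. Of these 6 markers 1 rose and 3 fell in each comparison. Of 7 astrocyte markers 6 rose with PBS and 3 with hAD-tau. Of the microglial markers, summing to 15.4 to 19.5 CPM on day 9 and 16.9 to 40.4 CPM on day 21, Cx3cr1, P2ry12 and Tmem119 were under 1 CPM. The part of the cell mixture in these differences was not tested.

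Other genes of the pathway were counted from lists. Of 19 further ATF4 targets tested, 9 rose and 3 fell with PBS and 12 rose and 0 fell with hAD-tau. The cystine transporter gene Slc7a11 (log2 2.37), Nupr1 (1.84) and Gadd45a (1.81) rose most with PBS, and Gdf15 fell by 1.07. Of 18 aminoacyl-tRNA synthetase genes 0 rose and 5 fell with PBS, and 4 rose and 2 fell with hAD-tau. Of 14 further ER stress regulators 6 rose and 5 fell with PBS, among them Casp12 (log2 3.20) and Crebrf (1.99) upward and Wfs1 (-1.32) downward. Of 32 translocation and glycosylation genes 10 rose and 7 fell, of 16 further degradation genes 3 rose and 5 fell, and of 17 ER-to-Golgi transport genes 3 rose and 6 fell.

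**Figure D2:**
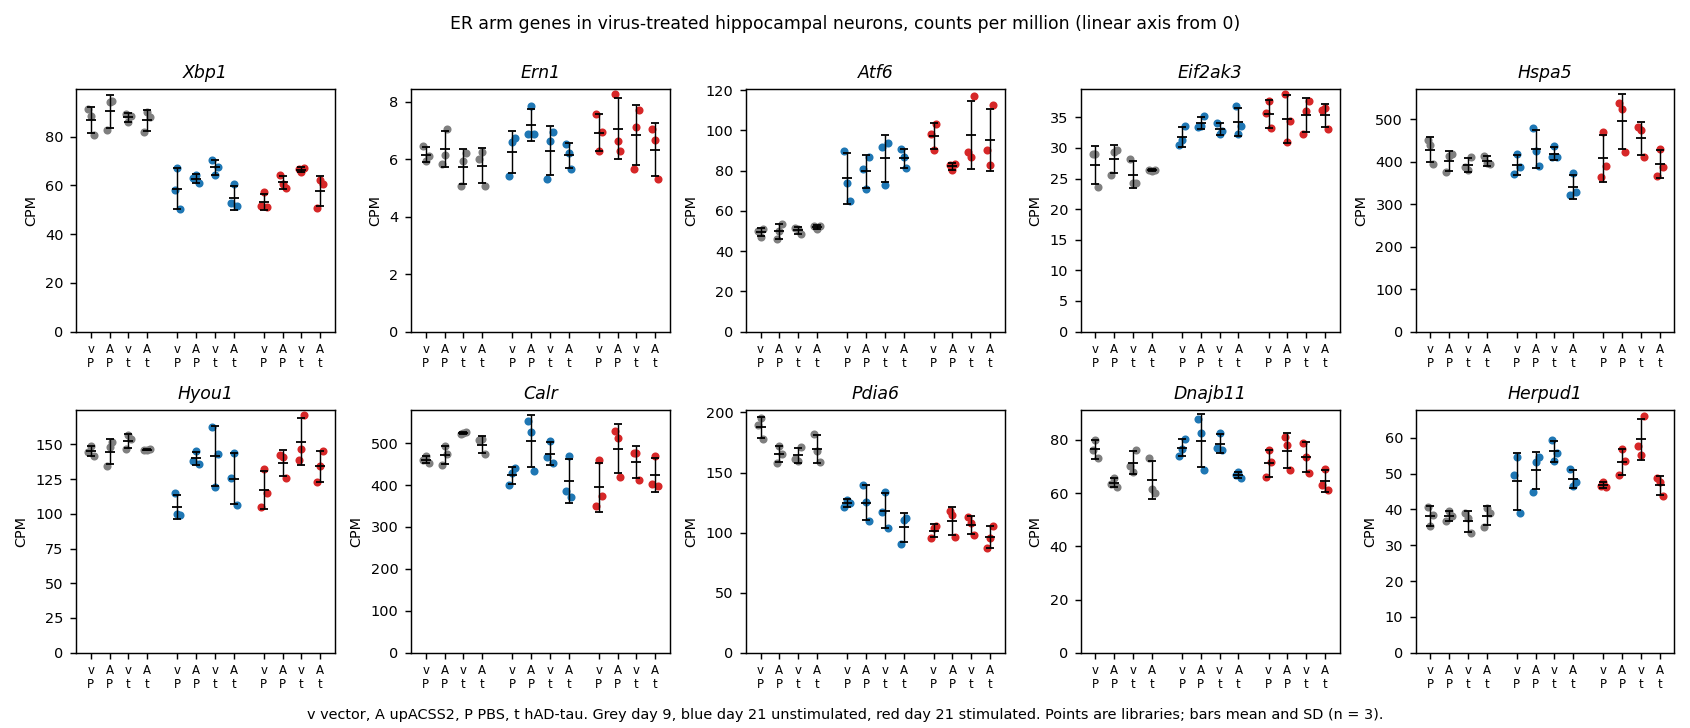
CPM of 10 ER-arm genes (linear vertical axes from 0) in the same 12 groups of virus-treated neurons (horizontal axis), drawn as points for libraries and bars for the mean and SD of n = 3. Atf6 stands higher and Xbp1 and Pdia6 lower on day 21 than on day 9, and stimulated and unstimulated day 21 groups overlap for Hspa5.

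At day 9, in PBS, the upACSS2 virus went with lower levels of part of the ATF4 arm. The called members were 6, all lower, against 10.2% of all genes tested in either direction and 5.35% lower. They were Atf4, Ddit3, Chac1 and Phgdh in the ATF4 arm and Pdia6 and Dnajb11 in the ER arm. Atf4 was at 218, 160 and 147 CPM with vector and 138, 136 and 156 CPM with upACSS2. The groups overlapped, and vector replicate 1 was the highest library. The log2 fold change was -0.31 ± 0.09 SE (adjusted p = 0.0366). Ddit3 was at 16.4, 13.9 and 12.6 CPM with vector and 11.4, 11.8 and 11.1 CPM with upACSS2, without overlap (log2 -0.36 ± 0.09 SE, adjusted p = 0.0151). Phgdh was at 34.0, 36.2 and 32.8 CPM against 30.1, 25.3 and 25.7 CPM, without overlap (log2 -0.34 ± 0.07 SE, adjusted p = 0.00552). Chac1, at 12.6, 8.06 and 8.73 CPM against 7.19, 6.42 and 8.26 CPM, overlapped (log2 -0.48 ± 0.14 SE, adjusted p = 0.0291). Trib3 was at 1.11, 0.733 and 0.488 CPM with vector and 0.339, 0.468 and 0.371 CPM with upACSS2 (log2 -1.14, adjusted p = 0.0559), and Asns had 0.05.

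In the ER arm the disulfide isomerase gene Pdia6 was at 190, 195 and 178 CPM with vector and 158, 172 and 166 CPM with upACSS2 (log2 -0.20 ± 0.05 SE, adjusted p = 0.0169), and the co-chaperone gene Dnajb11 at 76.0, 80.1 and 73.2 CPM against 63.6, 65.9 and 62.4 CPM (log2 -0.27 ± 0.06 SE, adjusted p = 0.0112). Neither overlapped. The regulators lay near 0, with log2 fold changes of 0.04 (Xbp1), 0.02 (Ern1), 0.00 (Atf6) and 0.03 (Eif2ak3), and Hspa5 had -0.10 (adjusted p = 0.186) and Hyou1 -0.01. The median was -0.33 over the ATF4 arm, with 9 of 10 genes negative, -0.02 over the ER arm and 0.00 over all genes. Part of this rested on 1 library. Without vector replicate 1 the calls numbered 2, and Atf4 (adjusted p = 0.344), Chac1 (0.376), Ddit3 (0.176) and Pdia6 lost theirs, while Phgdh and Dnajb11 were called in 12 of 12 such fits. Leaving out upACSS2 replicate 1 or 2 also ended the call of Atf4 and Chac1, leaving out upACSS2 replicate 3 that of Ddit3, and leaving out upACSS2 replicate 1 or vector replicate 2 that of Pdia6. A fit of all 24 day 9 and day 21 libraries with 1 common spread called 0 of them. Of 18 further ATF4 targets 3 fell (Slc7a11 by 0.53, Psph by 0.41, Gpt2 by 0.21) and of 18 aminoacyl-tRNA synthetase genes 5 fell and 1 rose. Marker lists moved in the same comparison. Of 5 oligodendrocyte markers tested 3 fell, Pdgfra by 2.39. Of 8 activity-regulated genes 3 fell (Nr4a1 by 0.56, Fos by 0.39, Bdnf by 0.36) and 8 were negative (median -0.38). Of 6 neuronal markers 3 rose (Map2, Syt1 and Tubb3) and Snap25 fell. Their part in the result was not tested. With hAD-tau in place of PBS, edgeR called 0 members (0.692% of all genes), 5 had an unadjusted p under 0.05 (12.6% of all genes), DESeq2 called 0 and the ATF4-arm median was 0.08.

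The response to hAD-tau at day 9 was small in both arms. In vector neurons 2 of 32 were called, against 4.28% of all genes. Calr, a calcium-binding chaperone of glycoproteins, was at 460, 468 and 452 CPM with PBS and 522, 523 and 526 CPM with hAD-tau, without overlap, and rose by 0.18 ± 0.04 SE on the log2 scale (adjusted p = 0.0103). Pdia6 was at 190, 195 and 178 CPM with PBS and 161, 160 and 171 CPM with hAD-tau, without overlap, and fell by 0.20 ± 0.05 SE (adjusted p = 0.0314). Calr was called in 10 of 12 and Pdia6 in 8 of 12 fits that left out 1 library; vector with PBS replicate 1 and vector with hAD-tau replicate 2 ended both calls, and vector with PBS replicate 2 and vector with hAD-tau replicate 1 that of Pdia6. Atf4 had -0.32 (adjusted p = 0.0553), Ddit3 -0.06, Trib3 -0.33 and Asns -0.05. Xbp1 had 0.01, Hspa5 -0.13 and Hyou1 0.07. In the same comparison 6 of 8 activity-regulated genes fell (Fosb by 1.63, Npas4 by 1.34, Fos by 0.87) and 8 were negative (median -0.79). Their part in the result was not tested. With upACSS2 edgeR called 0 (0.349% of all genes), 4 had an unadjusted p under 0.05 (9.05% of all genes), and DESeq2 called 1, Phgdh (log2 0.29, edgeR adjusted p = 0.0751).

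The interaction of virus and hAD-tau at day 9 called Phgdh alone, against 0.663% of all genes. Its virus effect was larger with hAD-tau than with PBS by 0.49 ± 0.10 SE on the log2 scale (adjusted p = 0.0436). Phgdh was at 29.6, 28.6 and 31.9 CPM in vector with hAD-tau and 33.4, 31.3 and 35.1 CPM in upACSS2 with hAD-tau, where the groups overlapped, the reverse order of the PBS groups. The call was kept in 5 of 12 fits that left out 1 library (replicate 1 or 3 of upACSS2 with PBS, replicate 2 of upACSS2 with hAD-tau, or replicate 3 of either vector group; adjusted p at most 0.142 in the rest). Each of the 10 ATF4-arm genes had a positive interaction, with a median of 0.28, and these 10 values share the same 12 libraries. The 8 activity-regulated genes were positive too (median 0.63), 5 with an unadjusted p under 0.05 and 0 called, and their part was not tested.

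In the edgeR fits of the day 21 libraries, made for each set alone, the upACSS2 virus changed 1 member: Ddit3, in stimulated neurons with hAD-tau. In unstimulated neurons with hAD-tau it was at 59.7, 51.7 and 53.4 CPM with vector and at 25, 28.6 and 23.1 CPM with upACSS2. In the stimulated neurons the same groups had 49.5, 55.1 and 56.8 CPM and 25.1, 26.7 and 24.8 CPM. In both sets the groups were far apart, and the upACSS2 libraries with hAD-tau were the lowest of their set for this gene. Ddit3 was 2.15-fold lower with upACSS2 in the unstimulated set, where it did not pass (log2 -1.10 ± 0.24 SE, adjusted p = 0.183), and fell 2.10-fold in the stimulated set (log2 -1.07 ± 0.19 SE, adjusted p = 0.0304). With PBS the log2 difference was -0.08 unstimulated and 0.35 stimulated. The interaction was -1.03 (adjusted p = 0.545) and -1.42 ± 0.26 SE (adjusted p = 0.205) and did not pass in either set. In this build Ddit3 overlaps the tRNA synthetase gene Mars. Whether the counting used strand is not given, so reads in the overlap cannot be assigned to 1 of them here. Ppp1r15a, Pdia3, Pdia6, Manf and Syvn1 overlap other protein-coding genes too (Tulp2, Catsper2, Atp6v1c2, Dcaf1 with Rbm15b, and Mrpl49), with the same limit.

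The stimulated Ddit3 call was 1 of 32 members, against 0.937% of all genes (140 of 14939), and was kept in 6 of 12 fits that left out 1 library. The fits that lost it left out any of the 3 upACSS2 libraries with hAD-tau, vector with hAD-tau replicate 1 or 3, or vector with PBS replicate 3, with adjusted p at most 0.135. The direction was the same in each. With a block for the replicate number, which pairs these samples, Ddit3 and Dnajb9 were called, and DESeq2 called Ddit3, Pdia4 and Herpud1. The 0.937% is from the main edgeR fit, so it is no background for these calls. Other ATF4-arm genes were Trib3 at -0.90, Chac1 at -0.50 (adjusted p = 0.121), Asns at -0.20 and Atf4 at 0.00. In the ER arm Herpud1 was at -0.35 (adjusted p = 0.0695), Pdia4 at 0.44 (adjusted p = 0.0958), Xbp1 at -0.20, Ern1 at -0.11, Atf6 at -0.03, Eif2ak3 at 0.00, Hspa5 at -0.20 and Hyou1 at -0.18. The medians were -0.17 for the ATF4 arm and -0.10 for the ER arm. Astrocyte markers were higher with upACSS2 in the same libraries, summing to 7296 to 8229 CPM against 2980 to 4655 CPM with vector. Of these 7 markers 7 were positive (median log2 0.94), each with an unadjusted p under 0.05, and 0 were called. Their part in the Ddit3 result was not tested.

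In the unstimulated set edgeR called 0 members for upACSS2 with hAD-tau (0.0273% of all genes), 6 had an unadjusted p under 0.05 (10.7% of all genes), and DESeq2 called 2, Ddit3 and Ppp1r15a. Ppp1r15a was at 28.1, 21.6 and 24.9 CPM with vector and 15.7, 16.1 and 16.5 CPM with upACSS2, without overlap (log2 -0.63, adjusted p = 0.212). Of the ATF4 arm 9 of 10 genes were negative (median -0.34) and of the ER arm 18 of 22 (median -0.12), against a median of 0.01 over all genes. Trib3 was at -0.62, Hspa5 at -0.30 and Xbp1 at -0.29. In the same comparison 7 of 7 astrocyte markers (median log2 0.52) and 6 of 6 oligodendrocyte markers (0.43) were positive, with 0 called. Their part in these values was not tested. With PBS edgeR also called 0 (0.0137% of all genes), with 3 at an unadjusted p under 0.05 (16.6% of all genes). DESeq2 called 1, Atf3, which was at 5.71, 9.29 and 13.4 CPM with vector and 5.79, 4.23 and 2.42 CPM with upACSS2 (log2 -1.20, edgeR adjusted p = 0.18). The 13.4 CPM was in the vector library that stood apart in astrocyte markers. These markers were 7 of 7 negative in this comparison (median log2 -0.89), with 0 called, and their part was not tested. Hyou1 had 0.41 (adjusted p = 0.21). An edgeR fit of all 24 unstimulated libraries, days 9 and 21 together, called 3 for upACSS2 on day 21 with hAD-tau (Ddit3, Ppp1r15a and Hspa5, all lower) and 3 with PBS (Atf3 lower, Hyou1 and Sel1l higher). The 0.0273% and 0.0137% above belong to the edgeR fit of day 21 alone, so they are no background for these calls or for those of DESeq2. In the stimulated set with PBS edgeR called 0 (0.208% of all genes). There 11 had an unadjusted p under 0.05 (15.9% of all genes), all positive (7.68%), and DESeq2 called 0. The ATF4-arm median was 0.39 with 9 of 10 genes positive, and ran from 0.09 to 0.46 over the fits that left out 1 library. With the replicate block Psat1 and Sesn2 were called, although replicate numbers were not held to pair these samples (correlations of -0.111 to 0.145). The 0.208% is no background for these calls.

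On day 21 few members passed for hAD-tau. In stimulated vector neurons 1 of 32 was called, against 3.02% of all genes: Herpud1, a degradation factor whose promoter holds both elements above, was at 46.5, 47.7 and 46.3 CPM with PBS and 57.6, 55.2 and 66.1 CPM with hAD-tau. The groups did not overlap, and it rose by 0.35 ± 0.08 SE on the log2 scale (adjusted p = 0.0487). The call was kept in 3 of 12 fits that left out 1 library (those without replicate 2 of vector with PBS, vector with hAD-tau or upACSS2 with PBS; adjusted p at most 0.193 in the rest) and absent in a fit of the groups compared alone. With the replicate block, which pairs these samples, 6 were called: Herpud1, Ddit3, Xbp1, Dnajb9 and Hyou1 higher and Pdia4 lower. The 3.02% belongs to the fit without the block, so it is no background for these 6. Without the block Xbp1 had 0.32 (adjusted p = 0.0554), Hyou1 0.38 (adjusted p = 0.0645), Pdia4 -0.49 (adjusted p = 0.0525), Ddit3 0.51 (adjusted p = 0.117), Atf4 -0.13, Trib3 0.54, Asns 0.17 and Hspa5 0.16. Astrocyte markers were lower in the same libraries, summing to 2980 to 4655 CPM with hAD-tau and 6179 to 10038 CPM with PBS, with 7 of 7 negative and Gfap (-1.70) and Aldh1l1 (-0.79) called. Their part in the result was not tested.

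In stimulated upACSS2 neurons edgeR called 0 members for hAD-tau (0.208% of all genes), while 12 had an unadjusted p under 0.05 (14.3% of all genes), all negative (5.53%), 8 of them in the ATF4 arm. DESeq2 and the replicate block each called 4, Ddit3, Chac1, Psat1 and Sesn2, all lower. The 0.208% is from the main edgeR fit, so it is no background for these calls. Replicate numbers were not held to pair these samples (correlations of -0.115 to 0.156). Ddit3 was at 37.0, 66.8 and 40.7 CPM with PBS and 25.1, 26.7 and 24.8 CPM with hAD-tau (log2 -0.91 ± 0.19 SE, edgeR adjusted p = 0.0713). Chac1 was at 20.8, 33.0 and 24.4 CPM with PBS and 13.8, 14.2 and 16.8 CPM with hAD-tau (log2 -0.79 ± 0.16 SE, edgeR adjusted p = 0.0713). Sesn2 was at 60.9, 79.4 and 53.1 CPM against 41.3, 43.8 and 41.3 CPM (log2 -0.60, edgeR adjusted p = 0.117). None of these 3 overlapped, and PBS replicate 2 was the highest library for each. All 10 ATF4-arm genes were negative (median -0.57), as were 19 of 22 ER-arm genes (median -0.15), against -0.01 over all genes, and the ATF4-arm median ran from -0.63 to -0.45 over the fits that left out 1 library. Atf4 itself had -0.16, Trib3 -0.95, Asns -0.24, Hspa5 -0.32, Xbp1 -0.07 and Hyou1 -0.01. The interaction called 0 (0.0% of all genes), 13 had an unadjusted p under 0.05 (14.3% of all genes), and DESeq2 called 3 (Ddit3, Chac1 and Herpud1, all negative).

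In unstimulated day 21 neurons edgeR called 0 members for hAD-tau with either virus, and 0.0% of all genes in each case. With vector 1 had an unadjusted p under 0.05 (9.3% of all genes), Hyou1 (log2 0.45, adjusted p = 0.53), which was at 115, 100 and 99.5 CPM with PBS and 162, 119 and 143 CPM with hAD-tau, and Ddit3 had 0.41. With upACSS2 5 members had an unadjusted p under 0.05 (6.36% of all genes). All 10 ATF4-arm genes were negative with upACSS2 (median -0.35), with Ddit3 at -0.62, Sesn2 at -0.51, Trib3 at -0.48 and Asns at -0.17, and 17 of 22 ER-arm genes were (median -0.16), with Hspa5 at -0.32. DESeq2 called 0 in both. The interaction called 0 (0.0% of all genes), 10 had an unadjusted p under 0.05 (8.3% of all genes), and DESeq2 called 0. Astrocyte markers were 7 of 7 positive for hAD-tau with upACSS2 (median log2 0.54, 2 without overlap) and 7 of 7 negative with vector (median -0.96), with 0 called in either. Their part in these values was not tested.

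In the cultures without virus hAD-tau went with lower ATF4-arm values, but 0 of 16341 genes passed (0.0%). Among the members 9 had an unadjusted p under 0.05 (13.9% of all genes), 8 of them lower (9.24%), and DESeq2 called 2, Chac1 and Asns. These percentages are edgeR's, and no share of all genes is given for DESeq2. Atf4 was at 251, 270 and 278 CPM with PBS and 212, 192, 113 and 166 CPM with hAD-tau, without overlap (log2 -0.64 ± 0.20 SE, adjusted p = 0.319). Asns, the asparagine synthetase gene, was at 165, 170 and 254 CPM against 113, 112, 67.2 and 98.4 CPM, without overlap (log2 -1.01 ± 0.23 SE, adjusted p = 0.306). Chac1 was at 46.0, 49.9 and 44.7 CPM against 28.6, 25.1, 11.6 and 21.5 CPM, without overlap (log2 -1.11 ± 0.27 SE, adjusted p = 0.306). Ddit3, at 41.0, 48.3 and 86.0 CPM against 38.6, 34.5, 22.5 and 30.8 CPM, had -0.89. Replicate 3 with hAD-tau was the lowest library for all 4 genes.

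All 10 ATF4-arm genes were negative there (median -0.61, against 0.01 over all genes), and 5 of 10 did not overlap, all lower, against 9.8% of all genes. The ER arm had a median of 0.02. Within it Herpud1 was at 52.1, 51.4 and 86.4 CPM with PBS and 36.4, 38.1, 38.7 and 35.7 CPM with hAD-tau (log2 -0.77 ± 0.19 SE, adjusted p = 0.306), Pdia4 was higher with hAD-tau (log2 0.63), Atf6 had -0.40, Xbp1 -0.20, Ern1 0.09, Eif2ak3 0.18, Hspa5 -0.09 and Hyou1 -0.25. The Herpud1 groups did not overlap, and their order was the reverse of that in stimulated vector neurons. Of 18 aminoacyl-tRNA synthetase genes 16 were negative (median -0.29). The 19 further ATF4 targets tested were 13 negative and 6 positive (median -0.14), 0 of them with an unadjusted p under 0.05. The PBS replicate 3 library stood apart, with astrocyte markers summing to 2215 CPM against 8395 and 9929 CPM; without it the ATF4-arm median was -0.58 with 10 of 10 negative and the ER-arm median -0.03. Neuronal markers summed to 1954 to 2487 CPM with hAD-tau and 2570 to 4184 CPM with PBS. Oligodendrocyte markers summed to 968 to 1641 CPM with hAD-tau and 36.1 to 674 CPM with PBS, and activity-regulated genes to 497 to 718 and 279 to 332 CPM, both without overlap. Astrocyte markers were positive in 7 of 7 (median log2 0.65), with sums that overlapped. The part of these marker genes in the ATF4-arm values was not tested.

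**Figure D3:**
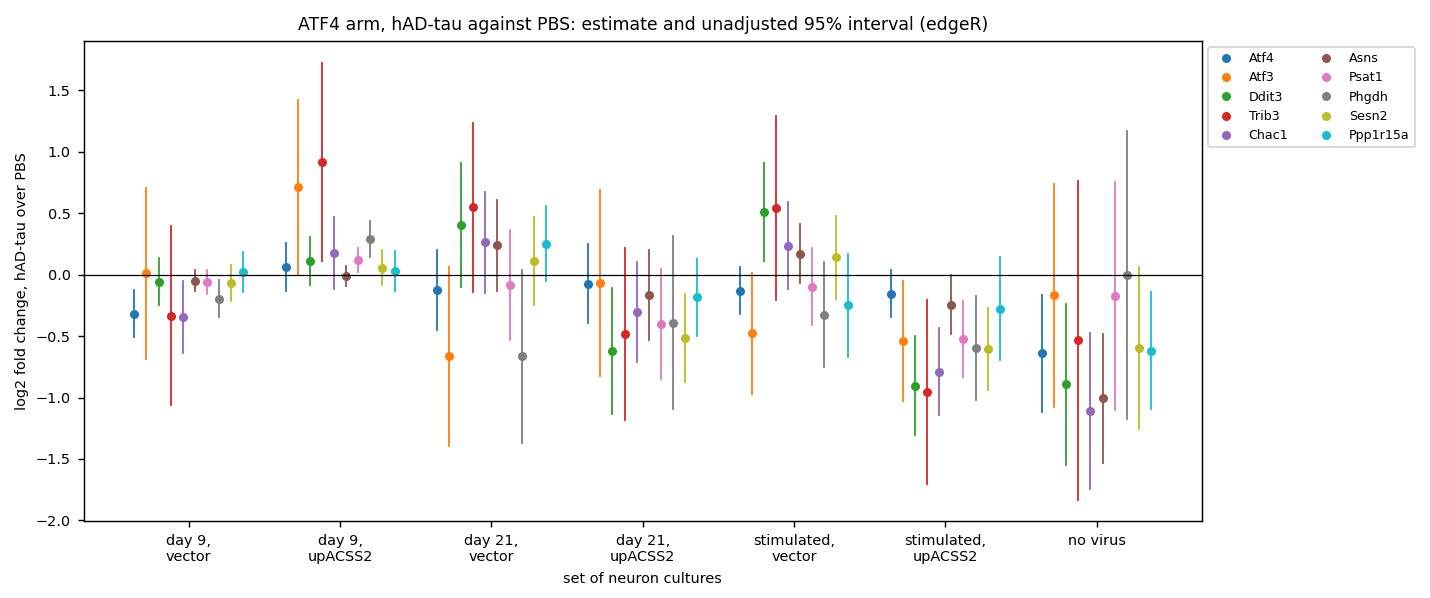
log2 fold change of the 10 ATF4-arm genes for hAD-tau over PBS (vertical axis) in 7 sets of neuron cultures (horizontal axis); points are edgeR estimates and lines their unadjusted 95% intervals. All 10 points lie below 0 in the day 21 upACSS2 set, the stimulated upACSS2 set and the cultures without virus, and none of the points plotted passed the adjusted threshold.

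In the mice no member was called in any comparison of the viruses. In aged mice edgeR called 0 of 31 members tested and 0.0% of all genes, 2 members had an unadjusted p under 0.05 (5.58% of all genes), and DESeq2 called 0. Trib3 was too low to be tested in any mouse table. Atf4 had a lowest, median and highest level of 90.2, 99.6 and 115 CPM with upACSS2 and 95.5, 104 and 118 CPM with vector. Ddit3 had 8.9, 11.5 and 14.2 CPM against 8.6, 11.5 and 14.5 CPM, and Hspa5 283, 317 and 367 CPM against 247, 351 and 393 CPM. Each pair of groups overlapped over most of its range. Log2 fold changes over the 31 genes ran from -0.13 (Atf3) to 0.11 (Syvn1), with medians of -0.06 for the ATF4 arm, 0.01 for the ER arm and 0.00 for all genes. They were -0.07 for Asns, 0.06 for Xbp1, 0.07 for Atf6, 0.03 for Eif2ak3, 0.00 for Ern1 and 0.04 for Hyou1.

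In 10-month mice edgeR and DESeq2 called 0 members (0.0% of all genes), and 3 had an unadjusted p under 0.05 (8.83% of all genes): Ddit3 (log2 -0.34, adjusted p = 0.553), Eif2ak3 (0.24, adjusted p = 0.518) and Hsp90b1 (-0.24). Ddit3 was at 7.73, 11.7 and 13.4 CPM with upACSS2 and 11.1, 14.7 and 15.4 CPM with vector (lowest, median and highest), with overlap. Asns had -0.01, Xbp1 0.11, Hspa5 0.11 and Hyou1 0.07. The arm medians were -0.07 and 0.08.

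In PS19 mice edgeR called 0 members and 0.0% of all genes at 1 month and at 6 months, and DESeq2 called 0. At 1 month 1 had an unadjusted p under 0.05 (2.92% of all genes) and at 6 months 3 had one (14.1%). Pdia6 at 1 month was at 128, 92.4, 105, 96.7 and 119 CPM with upACSS2 and 121, 147, 135, 132 and 115 CPM with vector, with overlap (log2 -0.27, adjusted p = 0.964). At 6 months Ern1 had -0.27 (adjusted p = 0.343), Dnajb9 0.21 and Sel1l -0.22. Ddit3 had -0.17 at both ages, Atf4 0.00 and 0.02, Hspa5 -0.11 and 0.08. Choroid plexus markers, a sign of the dissection, varied widely, summing to 82.9 to 5835 CPM with upACSS2 and 49.2 to 394 CPM with vector at 6 months; their part in the 6-month values was not tested.

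Between 1 and 6 months after virus in PS19 vector mice edgeR called 0 members although 7.46% of all genes passed, and 7 had an unadjusted p under 0.05 (25.1% of all genes). Ern1 came nearest, at 8.01, 10.9, 11, 9.89 and 12.1 CPM at 1 month and 11.2, 13.2, 15.3, 14.9 and 13.1 CPM at 6 months. The groups overlapped (log2 0.39 ± 0.13 SE, adjusted p = 0.0675), and DESeq2 called this gene. Atf3 was at 0.951, 2.34, 1.40, 1.02 and 2.87 CPM at 1 month and 3.17, 1.17, 4.69, 4.52 and 3.50 CPM at 6 months, with overlap (log2 1.00, adjusted p = 0.131). Atf4 had 0.01, Ddit3 0.10, Asns 0.04, Xbp1 -0.06, Eif2ak3 0.25, Atf6 0.03, Hspa5 -0.20 and Hyou1 0.16. With upACSS2 edgeR called 0 (0.0442% of all genes), Atf3 alone had an unadjusted p under 0.05 (13.7% of all genes did; log2 1.14, adjusted p = 0.262), DESeq2 called 0, and Ern1 had 0.04. The interaction of virus and time called 0 (0.0% of all genes), with 3 at an unadjusted p under 0.05 (12.3%), and DESeq2 called 0. The upACSS2 groups are labelled whole hippocampus at 1 month and dorsal hippocampus at 6 months. Time and tissue therefore cannot be told apart in the upACSS2 comparison or in this interaction. Elsewhere in the pathway, between the ages in vector mice, the amino acid transporter genes Slc38a2 (log2 0.58) and Slc1a4 (0.47), 2 of 9, rose. Of 13 genes of the eIF2 kinases and the eIF2 machinery Eif2ak4 (0.36), the gene of the amino acid sensor kinase GCN2, rose and Eif2b5 fell by 0.25. Of 18 aminoacyl-tRNA synthetase genes Iars (0.34) and Eprs (0.29) rose, and of 33 translocation and glycosylation genes Stt3a and Rpn2 did. Of 16 ER-to-Golgi genes Sec24a rose (0.35) while Sar1b and Sar1a fell, by 0.46 and 0.21. Creb3l2 (0.65), 1 of 13 further ER stress regulators, rose, Selenok, 1 of 16 further degradation genes, fell by 0.33, and 0 of 18 further ATF4 targets passed. In the same comparison 1 of 6 microglial and 2 of 6 oligodendrocyte markers rose, and their part was not tested.

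**Figure D4:**
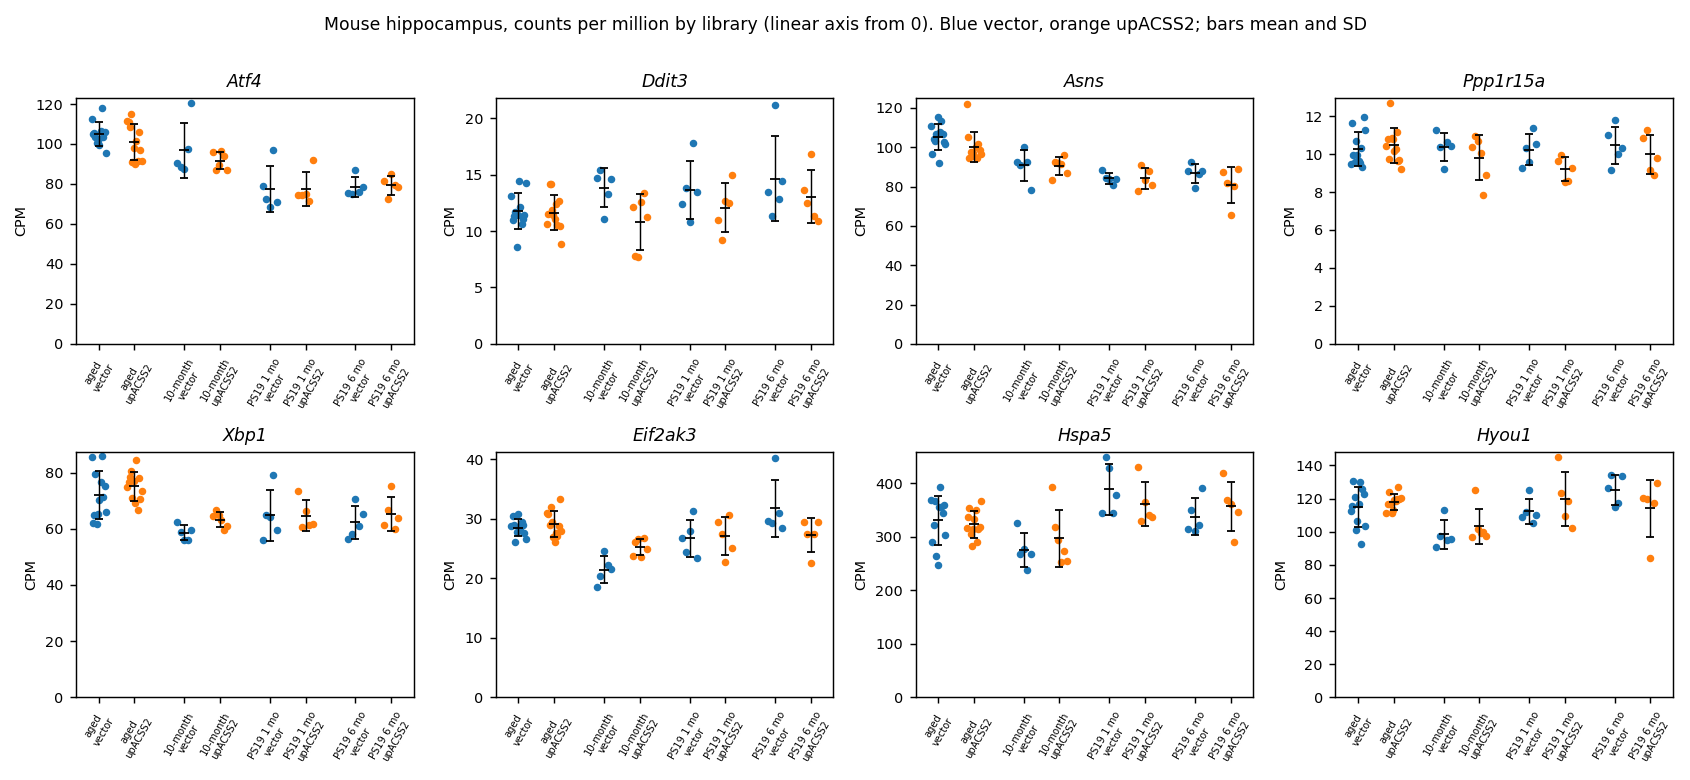
CPM of 8 genes (linear vertical axes from 0) in mouse hippocampus by group (horizontal axis), with vector in blue and upACSS2 in orange; points are animals and bars the mean and SD. Points of the 2 viruses overlap in every pair of groups plotted.

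**Figure D5:**
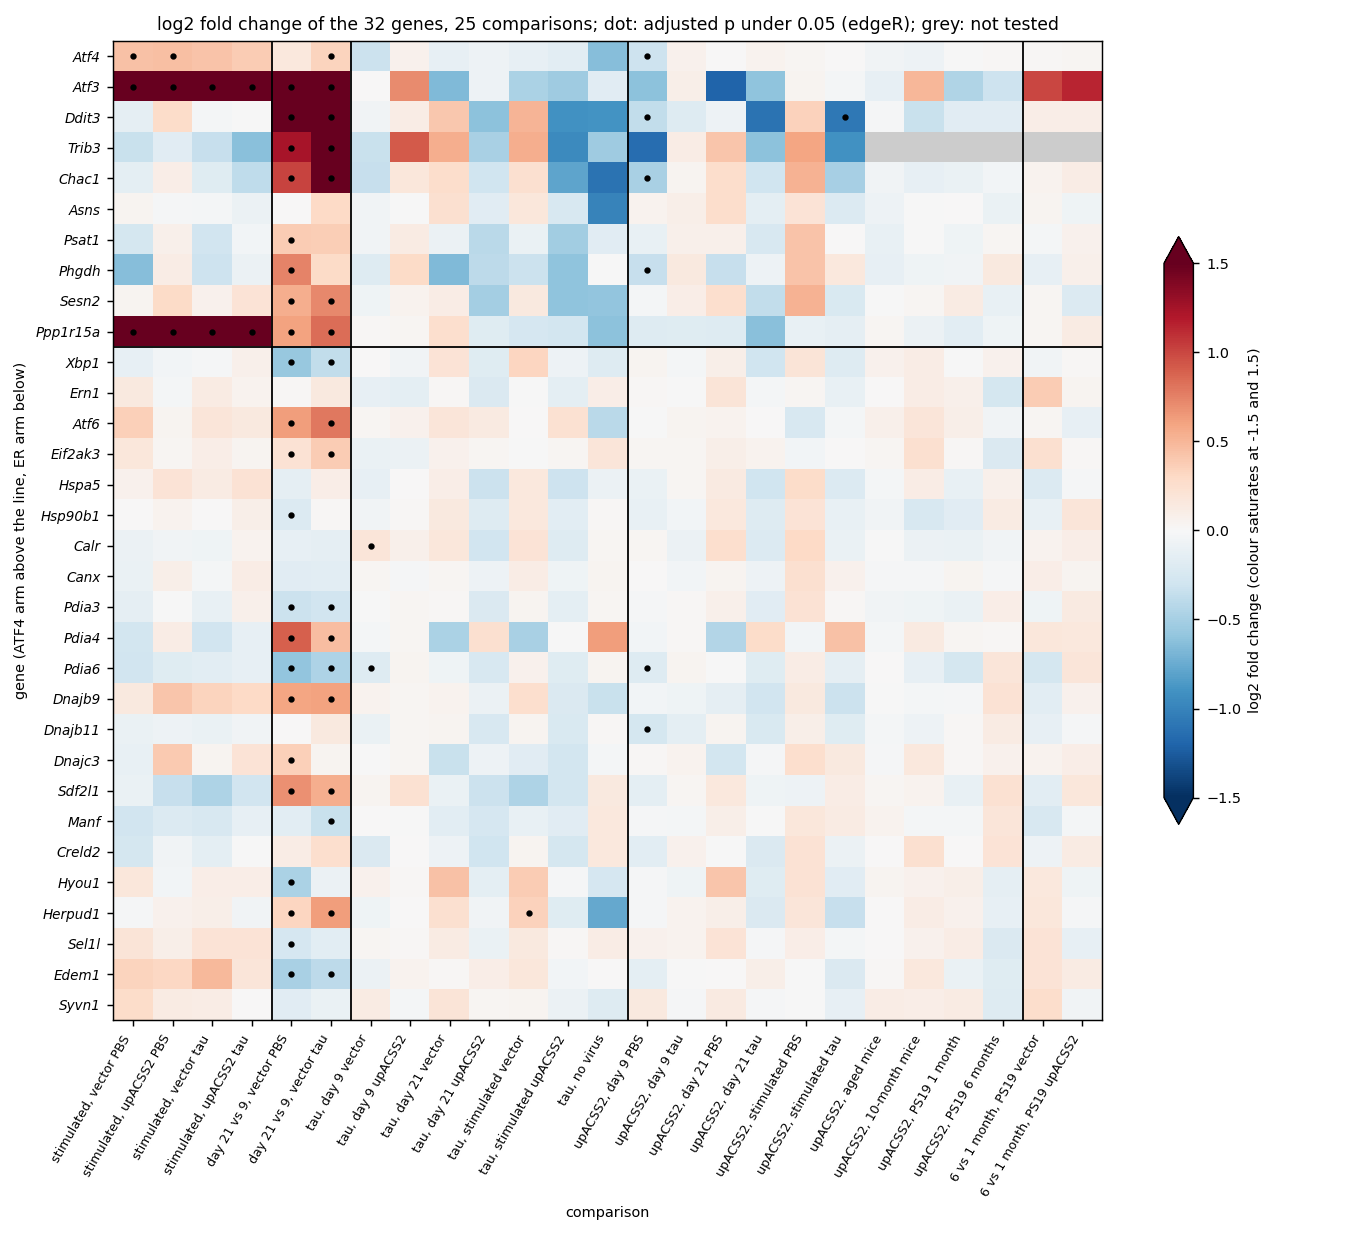
log2 fold change of the 32 genes (rows, ATF4 arm above the line) in 25 comparisons (columns), with red for higher, blue for lower, grey for not tested and a dot for an adjusted p under 0.05 (edgeR). Dots are most frequent in the 2 day 21 against day 9 columns (22 and 18), followed by upACSS2 at day 9 in PBS (6); the 4 stimulated columns hold 3 or 2 each, and no dot falls in a mouse column.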

How the data were processed

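RNA-seq counts per gene were taken as the authors deposited them, in 6 tables covering 98 libraries of 22 groups. The submitters' processing notes name STAR, featureCounts, HTSeq, DESeq2 and the build mm10, with no versions or roles; the strand setting and the annotation are not given in the sources used here. In the table of cultures without virus 1 row with no gene name held 6.13% to 8.74% of the counts and was left out. The members and the lists of other pathway and marker genes were chosen with earlier results of these data known.

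Each set of libraries was fitted with edgeR 4.0.16 (R 4.3.3): TMM normalization, genes kept by filterByExpr with a minimum count of 10, the quasi-likelihood F test, and Benjamini-Hochberg adjustment over all genes tested, with a threshold of 0.05. Day 9 and day 21 neurons were fitted apart for virus and hAD-tau, stimulation in a joint fit of both day 21 tables, and the ages in a fit of the unstimulated libraries. In all, 31 comparisons were made, 6 of them interactions. CPM values come from 1 TMM scaling over the 36 virus-treated neuron libraries, or within the table for the others. Fold changes are fitted values with SE. The code was tested on simulated counts.

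Atf4, Ddit3, Trib3, Asns, Xbp1, Eif2ak3, Atf6, Ern1, Hspa5 and Hyou1 were named where an arm is described, and further members were named by the size of a called change, up to 6 per arm and direction; up to 3 called genes were named from each other list. Other genes named were chosen after their values were seen. Precision is limited by the totals, from 5075099 to 39985460 counts, and by the number of libraries. Replicate numbers were held to pair samples where same-numbered libraries deviated together in every pair (correlation over 0.1), which was so for hAD-tau without virus (0.22 to 0.394), upACSS2 with hAD-tau when stimulated (0.111 to 0.359), hAD-tau with vector when stimulated (0.123 to 0.326) and stimulation with upACSS2 and PBS (0.374 to 0.58). Alternatives were DESeq2 1.42.0, DESeq2's size factors in edgeR, no filter on low counts, fits of the compared groups alone or of larger sets, a replicate block, and each library left out in turn except for the aged mice. Libraries were left out from every group of a fit. Those of groups not compared enter a comparison only through the shared spread, scaling and filter. Shares of all genes are from the main edgeR fits, and none is given for the alternatives. They are therefore no background for a call made by an alternative alone.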

Additional observations from a re-analysis of the deposited data

Results flagged for a closer look

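Across 84 checks of groups of 4 to 10 libraries, 7 values lay farther from the rest of their group than Dixon's 95% limit allows, against 4.2 expected by chance. In the cultures without virus, hAD-tau replicate 3 had a mean log2 CPM over the ER arm of 6.28, below 6.45 to 6.48 in the other 3. In 10-month upACSS2 mice Ern1 was at a log2 CPM of 2.77 in replicate 3 (the others 3.25 to 3.51) and Hyou1 at 6.97 in replicate 2 (6.60 to 6.67). Atf4 was at 6.53 in replicate 5 of PS19 upACSS2 at 1 month (6.16 to 6.23). In PS19 mice at 6 months, Eif2ak3 was at 4.50 in upACSS2 replicate 3 (4.78 to 4.89) and at 5.34 in vector replicate 3 (4.84 to 4.96), and Hyou1 was at 6.40 in upACSS2 replicate 3 (6.87 to 7.02).

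At day 9 the effect of upACSS2 on Phgdh differed between hAD-tau and PBS, with an interaction of 0.49 on the log2 scale.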

How the results depend on the processing

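Counts of called members moved by over 1.5 times under these settings. DESeq2 called 1 for upACSS2 with PBS and 2 with hAD-tau on day 21, 1 for hAD-tau with upACSS2 and 2 for the interaction on day 9, and, when stimulated, 3 for upACSS2 with hAD-tau, 4 for hAD-tau with vector, 4 with upACSS2 and 3 for the interaction. It called 2 for hAD-tau without virus and 1 for 6 against 1 month in PS19 vector mice. Without the filter on low counts the day 9 counts were 5 (hAD-tau, vector), 1 (hAD-tau, upACSS2) and 4 (interaction), and 2 for hAD-tau with either virus when stimulated. The compared groups alone gave 1 and 1 for hAD-tau at day 9 (vector and upACSS2), 0 for hAD-tau with vector when stimulated, and 1 for PS19 vector mice over time. Fitting day 9 and day 21 together gave 0 for upACSS2 with PBS, hAD-tau with vector and the interaction at day 9, and 3 and 3 for upACSS2 with PBS and hAD-tau on day 21; fitting both day 21 tables together gave 0 for hAD-tau with vector when stimulated. The cause was not tested.

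With the replicate block the stimulated counts were 2 for upACSS2 in PBS, 2 in hAD-tau, 6 and 4 for hAD-tau with vector and upACSS2, and 4 for the interaction; hAD-tau with vector at day 9 gave 3. The block moved no other count of calls by over 1.5 times. Leaving out 1 library gave 2 to 8 calls for upACSS2 with PBS, 0 to 4 for hAD-tau with vector and 0 to 3 for the interaction at day 9, 0 to 2 for upACSS2 with hAD-tau, 0 to 4 for hAD-tau with vector and 0 to 2 with upACSS2 when stimulated, 2 to 6 and 2 to 5 for stimulation with PBS (vector and upACSS2), and 0 to 2 for PS19 vector mice over time.

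Of the values of single genes, 1515 kept their call, 132 lost it and 0 changed direction. Scaling by DESeq2's size factors moved 1 of 704 group means by over 1 SD, by at most 1.09%.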
